A study of Mus musculus with 6 samples.

Results

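The genes of MHC class I and class II antigen presentation were followed in cerebellar RNA as 34 genes out of the 53746 in the deposited count table. They were chosen by symbol alone: the class I heavy chains and their light chain, the class II chains and their chaperones, the 2 transactivators, the peptide loading machinery, the immunoproteasome, and costimulatory molecules. No measured value entered the choice. The list was written with earlier results of these data known.

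RNA of whole cerebellum was sequenced at 2 months of age from 3 N153S LSL/LSL Pcp2-cre mice (written as Pcp2-cre mice) and 3 N153S LSL/LSL mice, the controls. All 6 mice carry the N153S allele of STING, an adaptor that signals cytosolic DNA, behind a LoxP-Stop-LoxP cassette. In Pcp2-cre mice the *Pcp2* promoter drives Cre in Purkinje cells, which removes the stop there, while controls keep it. Mice 1 and 2 of each genotype were labelled male and mouse 3 female, and the libraries were made from poly A RNA.

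MHC class I molecules present peptides from inside the cell to CD8 T cells. The peptides are cut by the proteasome, whose catalytic subunits are exchanged for immune forms under interferon, carried into the endoplasmic reticulum by the TAP transporter, and loaded on a heavy chain bound to beta-2 microglobulin. MHC class II molecules present peptides from endosomes to CD4 T cells and are held by the invariant chain until loading. In healthy brain both classes are low, and microglia and border macrophages are the cells best known for raising them.

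Total counts lay between 6733178 and 10178218 per mouse, and 3 counts, the limit of detection used here, came to 0.297 to 0.447 CPM (counts scaled to the effective library size), which covers counting error only. Control mice 1 and 2 stood apart from the other 4 mice in choroid plexus transcripts, with summed levels of 805.5 and 1246 CPM over 8 marker genes against 24.2 to 86.6 CPM in the others. The Purkinje cell markers showed the labelled tissue: 8 of 8 passed the test as lower in Pcp2-cre mice, with summed levels of 6362 to 6946 CPM in controls and 3482 to 3859 CPM in Pcp2-cre mice. In whole tissue, fewer cells of a type and less RNA per cell cannot be told apart.

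Of the 34 genes, 30 had enough counts to be tested among 16961 genes with edgeR's quasi-likelihood test. Genes with an edgeR p, adjusted by Benjamini-Hochberg, of 0.05 or less and a log2 fold change of 0.5 or more in either direction were called. *B2m*, *H2-K1* and *Psmb8* were called higher in Pcp2-cre mice, which is 3 of 30, and 0 were called lower. Among all tested genes 1.37% were called higher and 1.79% lower. With no threshold on the fold, the same 3 rose and 1, *H2-D1*, fell, against 2.99% and 4.75% of all tested genes. The adjusted p of the other 26 was above 0.05, although the unadjusted p was under 0.05 for 9 of the 30, against 18% of all tested genes. The median log2 fold change of the 30 was 0.16, beside 0.0045 over all tested genes, and 70% of them lay above zero, beside 51.3%. These describe the tested genes only, of which 2, *Psmb8* and *H2-Q7*, passed the filter on low counts through the Pcp2-cre mice alone. In CPM, every Pcp2-cre mouse lay above every control for 8 of the 30 and below for 1, where all tested genes gave 10.8% and 11.4%. The 4 genes that did not pass the filter on low counts were *H2-Q6*, *H2-DMb1*, *Cd86* and *Cd40*, and they are given by their counts.

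**Figure D1:**
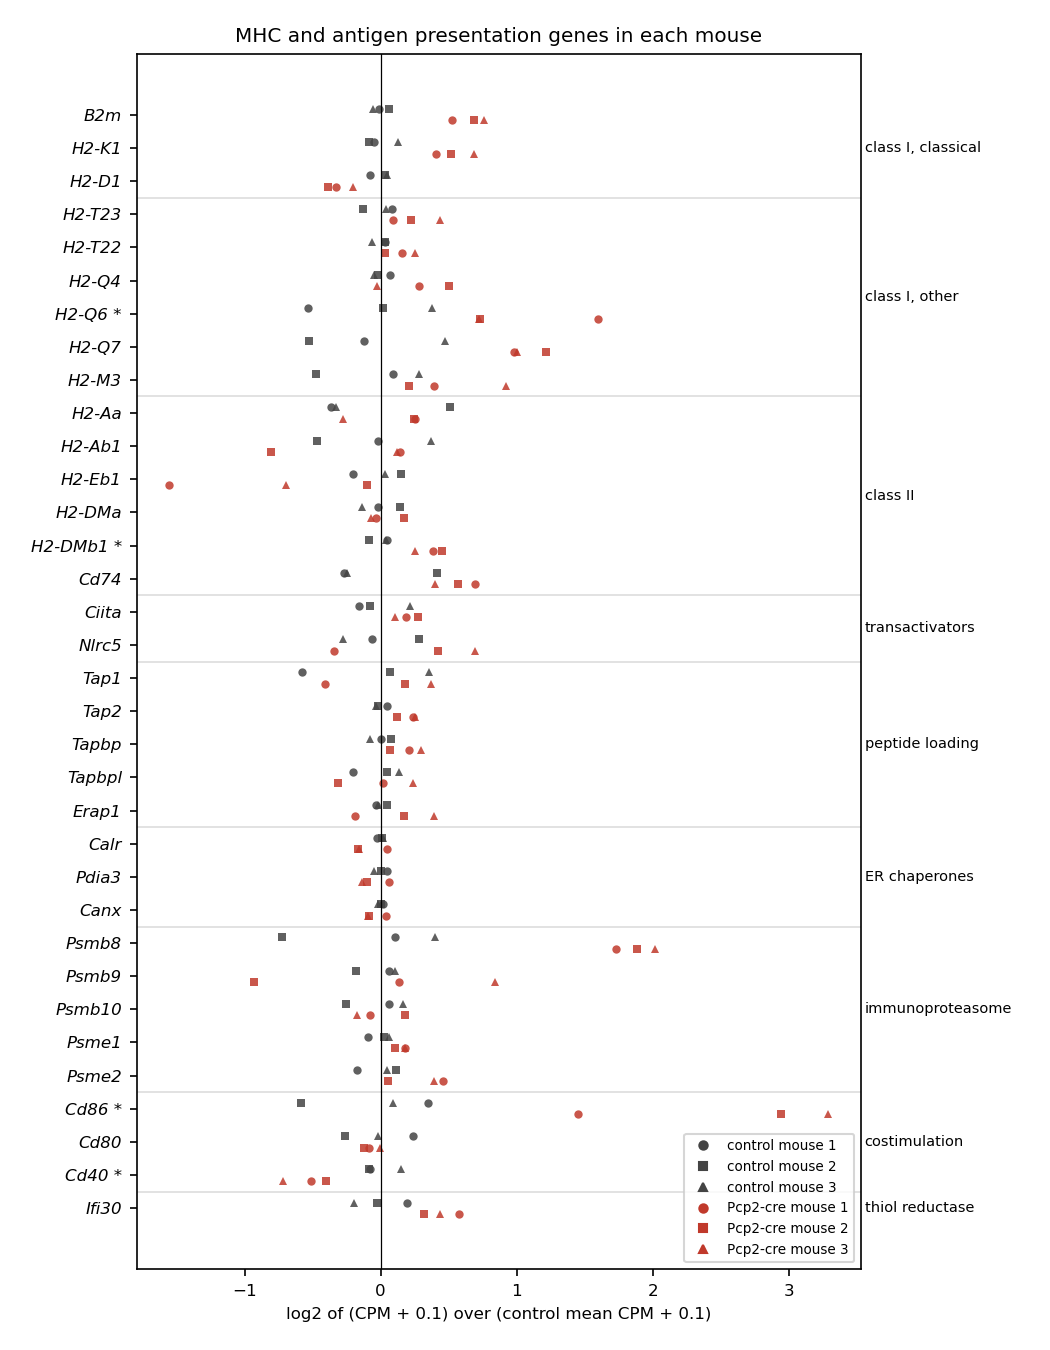
Level of each of the 34 genes in each mouse, as log2 of CPM + 0.1 over the control mean CPM + 0.1, for 3 control (grey) and 3 Pcp2-cre mice (red), grouped by role; an asterisk marks the 4 genes not tested for low counts. B2m, H2-K1 and Psmb8 separate to the right and H2-D1 to the left, and the ER chaperones lie close to zero in all 6 mice.

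The sequences upstream of 6 genes are shown because 3 of them rose, *B2m*, *H2-K1* and *Psmb8*, and 3 of the same roles did not, *H2-D1*, *Psmb9* and *Psmb10*. Each is the run of 250 bases before the RefSeq transcription start on GRCm38.p6, the build of that table and not of the counts. *B2m* is read from chr2:122147437-122147686 on the forward strand, *H2-K1* from chr17:34000348-34000597 on the reverse strand, and *H2-D1* from chr17:35262844-35263093 on the forward strand. *Psmb8* is read from chr17:34197945-34198194 on the forward strand, *Psmb9* from chr17:34187331-34187580 and *Psmb10* from chr8:105938393-105938642, both on the reverse strand. Capitals mark matches, on either strand, to the Y box CTGATTGG (the inverted CCAAT box of MHC promoters), to GAAANNGAA or GAANNGAAA (the core of the interferon-stimulated response element in both its spacings), to TTCNNNGAA (bound by STAT dimers) and to GGGANTNCC (an NF-kB form).
B2m: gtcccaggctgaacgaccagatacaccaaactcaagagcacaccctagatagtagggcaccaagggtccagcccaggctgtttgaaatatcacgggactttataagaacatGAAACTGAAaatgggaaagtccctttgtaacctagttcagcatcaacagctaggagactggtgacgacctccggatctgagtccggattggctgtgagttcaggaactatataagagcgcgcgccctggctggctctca
H2-K1: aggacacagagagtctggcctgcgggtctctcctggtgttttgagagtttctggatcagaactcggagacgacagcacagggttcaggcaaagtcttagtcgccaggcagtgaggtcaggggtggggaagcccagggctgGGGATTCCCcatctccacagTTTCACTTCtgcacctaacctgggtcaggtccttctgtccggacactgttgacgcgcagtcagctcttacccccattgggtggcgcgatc
H2-D1: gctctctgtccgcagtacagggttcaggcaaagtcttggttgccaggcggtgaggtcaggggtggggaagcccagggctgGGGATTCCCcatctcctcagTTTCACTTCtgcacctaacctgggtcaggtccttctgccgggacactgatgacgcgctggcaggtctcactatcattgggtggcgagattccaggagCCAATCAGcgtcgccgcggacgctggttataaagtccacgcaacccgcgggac
Psmb8: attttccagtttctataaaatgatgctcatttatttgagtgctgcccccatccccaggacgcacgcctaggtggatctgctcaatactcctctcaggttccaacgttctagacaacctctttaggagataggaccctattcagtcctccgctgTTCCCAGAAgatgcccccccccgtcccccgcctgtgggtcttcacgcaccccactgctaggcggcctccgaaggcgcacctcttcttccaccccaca
Psmb9: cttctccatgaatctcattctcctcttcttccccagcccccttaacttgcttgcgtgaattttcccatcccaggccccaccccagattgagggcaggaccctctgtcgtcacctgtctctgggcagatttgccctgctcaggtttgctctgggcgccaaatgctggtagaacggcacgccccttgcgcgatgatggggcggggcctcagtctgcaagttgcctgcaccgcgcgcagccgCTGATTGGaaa
Psmb10: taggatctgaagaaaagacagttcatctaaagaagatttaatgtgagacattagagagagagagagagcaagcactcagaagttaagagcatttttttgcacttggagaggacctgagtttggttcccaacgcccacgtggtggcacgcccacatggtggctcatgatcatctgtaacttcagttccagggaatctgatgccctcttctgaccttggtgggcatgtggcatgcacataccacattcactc

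*H2-K1* and *H2-D1*, which moved in opposite directions, share most of these letters. Over 177 aligned columns 91% of their bases were identical, with a longest shared run of 47 bases. Both hold GGGATTCCC, at -110 to -102 in *H2-K1* and -170 to -162 in *H2-D1*, and both hold TTTCACTTC, at -90 to -82 and -150 to -142, counted back from the start site. The Y box of *H2-D1* lies at -53 to -46, and that of *H2-K1* lies at 9 to 16 past the RefSeq start, outside the run shown. From another RefSeq start of *H2-K1*, not shown, its matches lie at -124 to -116 (GGGATTCCC), -104 to -96 (TTTCACTTC) and -6 to 2 (Y box). The positions in *H2-K1* therefore depend on the start chosen. *B2m* holds GAAACTGAA at -139 to -131. *Psmb8* holds TTCCCAGAA at -97 to -89, *Psmb9* holds CTGATTGG at -11 to -4, and *Psmb10* holds no match in this run.

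RefSeq windows of 250 bases before to 50 bases after the start were found for 26 of the 34 genes. The Y box was in 10 of 26 (38.5%), beside 4.67% of 26999 other genes. GAAANNGAA was in 5 of 26 (19.2%) beside 9.75%, and GAANNGAAA, added after the sequences were seen, in 7 of 26 (26.9%) beside 8.66%. GGGANTNCC was in 6 of 26 (23.1%) beside 4.55%, and TTCNNNGAA in 2 of 26 (7.69%) beside 9.56%. GAAANNGAA and GAANNGAAA can overlap each other, and a class I promoter that was copied with its gene carries its motifs along, so these genes are not independent. A match describes the letters only.

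*B2m* encodes beta-2 microglobulin, the light chain shared by class I molecules (chromosome 2 of GRCm39, 121977957 to 121983594). It had 49.9, 52.4 and 48.4 CPM in control mice 1, 2 and 3, and 72.3, 80.8 and 85.2 CPM in Pcp2-cre mice 1, 2 and 3. The lowest Pcp2-cre mouse was thus well above the highest control, by more than the spread within either group. The mean was 50.2 ± 2.05 CPM in controls and 79.4 ± 6.56 CPM in Pcp2-cre mice (SD, n = 3 each). The log2 fold change was 0.66 ± 0.0634 (SE, edgeR adjusted p = 2.01e-07). Leaving out any 1 mouse gave values from 0.61 to 0.72.

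*H2-K1* encodes a classical class I heavy chain, and the counts were 161, 132 and 229 in controls and 210, 258 and 227 in Pcp2-cre mice. Scaled to library size these were 20.1, 19.7 and 22.7 CPM in controls and 27.7, 29.8 and 33.6 CPM in Pcp2-cre mice, with no overlap. The log2 fold change was 0.53 ± 0.0927 (SE, edgeR adjusted p = 0.000539). This is just over the fold threshold. Without control mouse 1, without control mouse 2 or without Pcp2-cre mouse 3 the value was 0.4974, 0.49 and 0.45, under the threshold, with adjusted p of 0.00682, 0.003 and 0.0092. With the choroid plexus score as a covariate edgeR gave 0.46 (adjusted p = 0.0124), and without control mice 1 and 2 together 0.41 (adjusted p = 0.0503).

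*H2-D1*, which encodes the other classical heavy chain of the list, was the most abundant class I heavy chain. Its counts were 904, 816 and 1239 in controls and 721, 787 and 697 in Pcp2-cre mice. Its level was 112.8, 121.5 and 122.8 CPM in controls and 94.96, 90.8 and 103.1 CPM in Pcp2-cre mice. The lowest control stood above the highest Pcp2-cre mouse. On the log2 scale the change was -0.31 ± 0.0503 (SE, edgeR adjusted p = 0.000229), under the fold threshold. Over 17 other settings it lay between -0.36 and -0.24 with an adjusted p of at most 0.0316.

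The FPKM table, which scales fragments to transcript length, allows levels to be compared between genes. *B2m*, *H2-K1* and *Psmb8* were higher and *H2-D1* lower in it too, while *H2-Ab1*, *Tap1*, *Tapbpl*, *Psmb10* and *Cd40*, none of them called, had opposite signs in CPM and FPKM. Of the 30 genes tested on counts, FPKM groups did not overlap for 15 that were higher and 1 that was lower in Pcp2-cre mice, beside 11.3% and 8.47% of all genes tested on counts. With limma on log2(FPKM + 1), 4 higher and 1 lower of the 34 had an adjusted p of 0.05 or less at any fold, beside 1.24% and 1.59% of 21290 genes. With log2(FPKM + 0.1) the counts were 5 and 1, beside 1.22% and 1.56%. In controls, *B2m* had 51.6 ± 1.62 FPKM, *H2-D1* 50.7 ± 0.244 FPKM and *H2-K1* 11.1 ± 0.383 FPKM (SD, n = 3 mice each). In Pcp2-cre mice the levels were 87.5 ± 6.09, 42.9 ± 1.70 and 18.2 ± 1.13 FPKM in the same order. Ratios to *H2-D1* were formed after the opposite directions had been seen, so they describe those directions and carry no test. The ratio of *H2-K1* to *H2-D1* was 0.213, 0.22 and 0.226 in controls and 0.379, 0.461 and 0.436 in Pcp2-cre mice. It was 1.94 times higher in Pcp2-cre mice from FPKM and 1.80 times from CPM. The ratio of *B2m* to *H2-D1* was 1.03, 1.04 and 0.981 in controls and 1.81, 2.17 and 2.15 in Pcp2-cre mice. Since their members had already separated, that the groups do not overlap was fixed by the choice.

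The counts of class I heavy chains carry a limit of their own. These genes are close paralogs, and how reads that map to several of them were counted is not given in the sources used here, so their reads could be split. The use of strand is not given either, and exons of *H2-K1* share 855 bases with the antisense gene *Gm53999* and those of *H2-D1* share 723 bases with *5430410E06Rik*. If strand was not used, reads within the shared bases of these pairs could not be told apart. Further such pairs include *Psmb7* and Nek6, *Psme1* and Emc9, *Psme2* and Rnf31, and *Tapbp* and Gm19412. The same limit holds for *Erap1* and Cast (835 bases), *Ciita* and Dexi (633 bases), and *H2-DMa* and Brd2 (510 bases). *Tapbp* also shares 923 bases with Zbtb22 on the same strand, which no strand setting would separate.

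**Figure D2:**
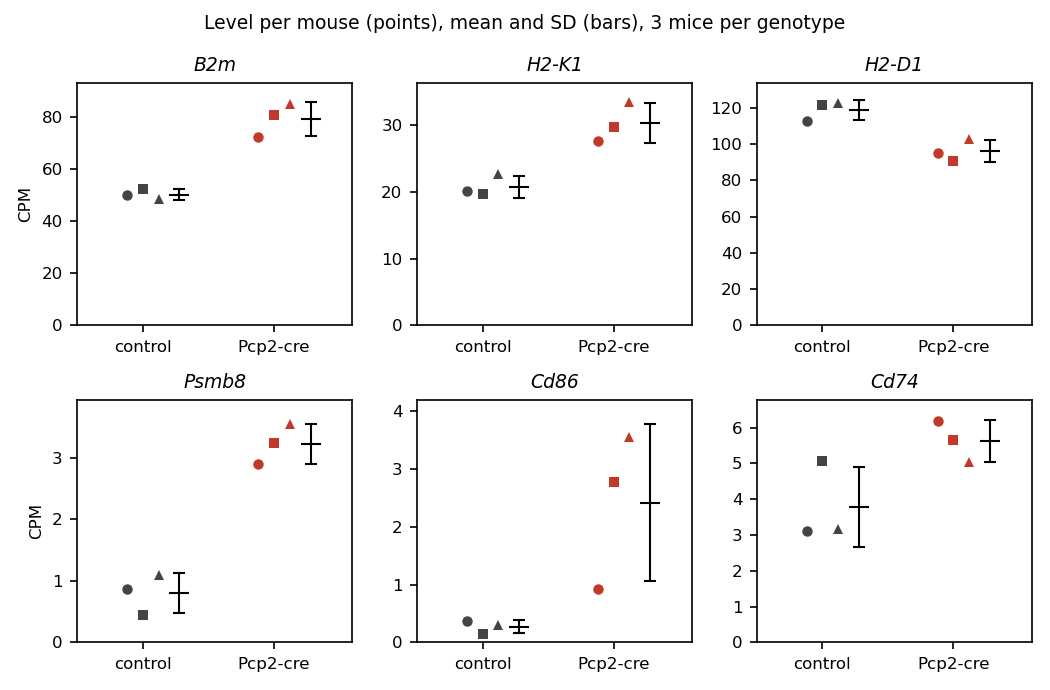
Level in CPM (linear axis from zero) of 6 genes in each of 3 control (grey) and 3 Pcp2-cre mice (red), with the mean and SD beside the points. B2m, H2-K1, Psmb8 and Cd86 do not overlap and are higher in Pcp2-cre mice, H2-D1 is lower with no overlap, and the highest control of Cd74 lies just above its lowest Pcp2-cre mouse.

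The tested nonclassical class I genes all had log2 fold changes above zero, and none passed the test, beside 2.99% higher and 4.75% lower of all tested genes. *H2-T23*, which encodes the Qa-1 molecule that is read by NK cell receptors, *H2-T22*, *H2-Q4*, *H2-Q7* and *H2-M3*, which presents formylated peptides, had log2 fold changes of 0.15 to 1.10. Only 1 of the 5, *H2-Q7*, had an unadjusted edgeR p under 0.05, beside 18% of all tested genes. *H2-Q7* had 0.624, 0.447 and 0.991 CPM in controls and 1.45, 1.73 and 1.48 CPM in Pcp2-cre mice. Its log2 fold change was 1.10 ± 0.381 (SE, edgeR adjusted p = 0.0938), at 11, 15 and 10 counts in the Pcp2-cre mice, and it too passed the filter on low counts through the Pcp2-cre mice alone. *H2-Q6* was not tested and had 3, 4 and 8 counts in controls and 15, 9 and 7 in Pcp2-cre mice. In CPM these did not overlap, at 0.374 to 0.793 in controls and 1.04 to 1.98 in Pcp2-cre mice. Its pooled ratio, scaled to library size, was 2.27 with a 95% exact counting interval of 1.19 to 4.53, which covers counting error only. With the spread between mice included, the adjusted p was 0.133 in edgeR with no filter, 0.725 in DESeq2 and 0.628 in limma on log2(FPKM + 1), and the FPKM groups overlapped. *H2-T23* also did not overlap in CPM, with 6.85 to 7.98 in controls and 8.03 to 10.21 in Pcp2-cre mice.

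Among the class II genes, 0 of 5 tested passed, beside 2.99% of all tested genes that passed as higher and 4.75% as lower. At these shares, 0 of 5 does not set the class II genes apart from all tested genes. *H2-Aa*, the class II alpha chain, had 1.25, 2.38 and 1.29 CPM in controls and 1.98, 1.962 and 1.33 CPM in Pcp2-cre mice. *H2-Ab1*, its beta chain partner, had 1.87, 1.34 and 2.48 CPM in controls and 2.11, 1.04 and 2.07 CPM in Pcp2-cre mice. Both genes overlapped between genotypes, with log2 fold changes of 0.17 (standard error 0.328) and -0.21 (standard error 0.328). *H2-Eb1*, the other beta chain, lay at 1.497 to 1.94 CPM in controls and 0.527 to 1.62 CPM in Pcp2-cre mice, and *H2-DMa*, which helps exchange peptides on class II, at 14.7 to 17.9 and 15.4 to 18.2 CPM. *H2-DMb1*, the partner of *H2-DMa*, was not tested, with 3 to 5 counts in controls and 4 to 6 in Pcp2-cre mice. Scaled to library size its groups did not overlap, at 0.447 to 0.499 and 0.592 to 0.693 CPM, nor did they in FPKM. At so few counts its pooled ratio was 1.37 with a 95% exact counting interval of 0.60 to 3.22, which covers counting error only.

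*Cd74*, the invariant chain, had the largest log2 fold change of the tested class II genes, 0.61 ± 0.215 (SE, edgeR adjusted p = 0.101). Its levels were 3.12, 5.06 and 3.17 CPM in controls and 6.19, 5.66 and 5.03 CPM in Pcp2-cre mice. Control mouse 2 reached the range of the Pcp2-cre mice in CPM, and without it the value was 0.84 with an edgeR adjusted p of 0.0281. In FPKM the *Cd74* groups did not overlap, at 2.25 to 2.88 in controls and 3.197 to 4.56 in Pcp2-cre mice. The limma adjusted p was 0.139 on log2(FPKM + 1) and 0.122 on log2(FPKM + 0.1). *Ifi30*, the thiol reductase that opens disulfide bonds of endosomal antigens, had 6.24, 5.36 and 4.76 CPM in controls and 8.17, 6.81 and 7.397 CPM in Pcp2-cre mice. Its groups did not overlap, and its log2 fold change was 0.46 ± 0.172 (SE, edgeR adjusted p = 0.132).

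The transactivators of both classes did not pass the test. *Ciita*, which drives class II genes, had 6.61, 6.998 and 8.62 CPM in controls and 8.43, 9.003 and 7.99 CPM in Pcp2-cre mice (log2 fold change 0.18, standard error 0.156). *Nlrc5*, its class I counterpart, had 13, 14 and 14 counts in controls and 10, 20 and 19 in Pcp2-cre mice (log2 fold change 0.36, standard error 0.315). *Nlrc5* was the lowest of the 34 genes in controls per length, at 0.131 FPKM. Its FPKM groups did not overlap, at 0.128 to 0.135 in controls and 0.1585 to 0.354 in Pcp2-cre mice, with a limma adjusted p of 0.442 on log2(FPKM + 1). On counts, where its groups overlapped, the interval of the *Nlrc5* log2 fold change ran from -0.26 to 0.98, which holds both zero and the value of *B2m*.

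Peptide transport and loading genes gave 0 of 5 past the test, beside 2.99% higher and 4.75% lower of all tested genes. So small a group cannot be told from those shares. *Tap1*, a chain of the peptide transporter, had 1.87, 2.98 and 3.67 CPM in controls and 2.11, 3.23 and 3.70 CPM in Pcp2-cre mice. Its log2 fold change was 0.06 ± 0.274 (SE, edgeR adjusted p = 0.952). *Tap2*, the other chain, did not overlap in CPM, with 8.72 to 9.23 in controls and 9.70 to 10.7 in Pcp2-cre mice (log2 fold change 0.21, standard error 0.133). *Tapbp* (tapasin, which bridges the transporter and class I), *Tapbpl*, a tapasin relative, and *Erap1*, which trims peptides in the endoplasmic reticulum, overlapped between genotypes in CPM, with log2 fold changes of 0.19, -0.02 and 0.14.

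The chaperones *Calr*, *Pdia3* and *Canx*, which fold class I along with many other proteins, were among the 5 most abundant genes of the list at 123, 47.5 and 69.2 FPKM in controls. Their log2 fold changes were -0.09, -0.05 and -0.05 with standard errors of 0.05, 0.0492 and 0.0434, and all 3 overlapped between genotypes. Their intervals did not reach 0.05 on the higher side. This is the group of the list measured with the smallest error, and the value of *B2m* lies outside their intervals.

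**Figure D3:**
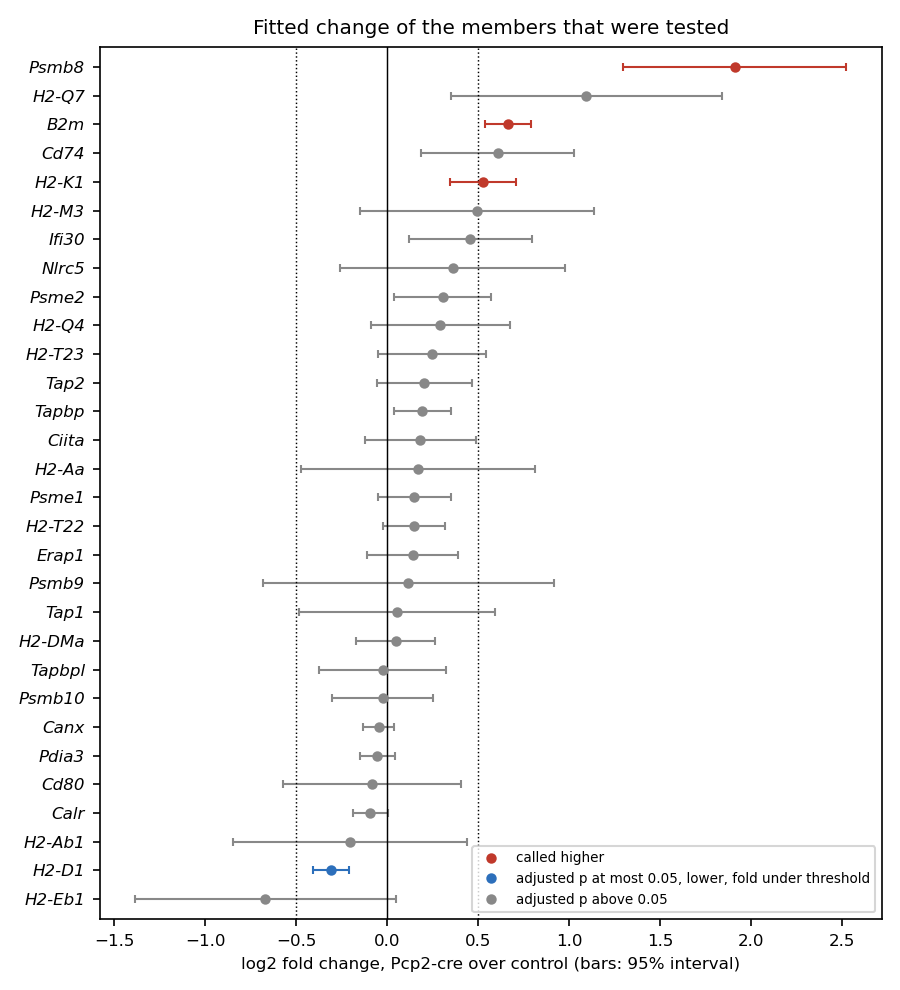
Fitted log2 fold change, Pcp2-cre over control, of the 30 tested genes with 95% intervals, and dotted lines at the fold threshold of 0.5 in each direction. Psmb8, B2m and H2-K1 (red) were called higher, H2-D1 (blue) passed the adjusted p below the fold threshold, and the wide bars of H2-Q7, H2-Eb1 and Psmb9 belong to genes of few counts.

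*Psmb8* encodes LMP7, the immune form of a catalytic proteasome subunit (chromosome 17 of GRCm39). It had 7, 3 and 11 counts in controls and 22, 28 and 24 in Pcp2-cre mice, or 0.873, 0.447 and 1.09 CPM and 2.898, 3.23 and 3.55 CPM. The groups did not overlap. The log2 fold change was 1.91 ± 0.313 (SE, edgeR adjusted p = 0.00025), and 1.68 to 2.22 when any 1 mouse was left out. The filter on low counts asked for 1.27 CPM in 3 mice, which *Psmb8* reached in all 3 Pcp2-cre mice and in 0 controls, so it was tested through the group where it is high, and with no filter the log2 fold change was 1.904. The fold was 3.76 from the counts and 2.41 from the mean FPKM, with limma values of 1.13 on log2(FPKM + 0.1) and 0.57 on log2(FPKM + 1). It was not tested where at least 10 counts were asked of every mouse. Exons of *Psmb8* share 498 bases with the antisense gene *Gm20496*.

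The other immunoproteasome genes did not pass the test on counts. *Psmb9*, which encodes LMP2 and neighbours *Tap1*, had 1.25, 1.04 and 1.29 CPM in controls and 1.32, 0.577 and 2.22 CPM in Pcp2-cre mice (log2 fold change 0.12, standard error 0.408). The Pcp2-cre mice spanned the controls on both sides in CPM, whereas in FPKM they lay at 0.612 to 1.08 and the controls at 0.422 to 0.486. *Psmb9* and *Tap1* share 743 bases of exon on opposite strands. *Psmb10*, the third immune subunit, overlapped at 9.08 to 12.2 and 9.62 to 12.4 CPM. *Psme1* and *Psme2*, the subunits of the PA28 activator, had log2 fold changes of 0.15 and 0.31, and *Psme1* did not overlap in CPM, with 13.7 to 15.3 in controls and 15.7 to 16.6 in Pcp2-cre mice. *Psme2* overlapped in CPM but not in FPKM, with 8.71 to 10.9 in controls and 12.04 to 13.4 in Pcp2-cre mice, and limma gave an adjusted p of 0.0496 on log2(FPKM + 1) and 0.0485 on log2(FPKM + 0.1).

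Each immune subunit takes the place of 1 constitutive subunit, so its FPKM was set against that partner in each mouse. *Psmb8* over *Psmb5* was 0.012, 0.0098 and 0.0124 in controls and 0.0259, 0.0271 and 0.0304 in Pcp2-cre mice, 2.44 times higher with no overlap, and 4.15 times higher in CPM. *Psmb9* over *Psmb6* was 1.72 times higher in FPKM with no overlap, but 1.12 times in CPM, where the groups overlapped. *Psmb10* over *Psmb7* was 1.11 times higher and overlapped. The two-sided exact permutation p values were 0.1, 0.1 and 0.6, and adjusted over the 3 ratios 0.15, 0.15 and 0.6. Here 0.1 is the smallest p that 3 against 3 mice allow. The FPKM of *Psmb8* and of *Psmb9* alone already separated the genotypes, while their partners changed little. The p values of their ratios therefore add no support of their own. *Psmb5*, *Psmb6* and *Psmb7* themselves had log2 fold changes of -0.06, 0.03 and -0.02.

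**Figure D4:**
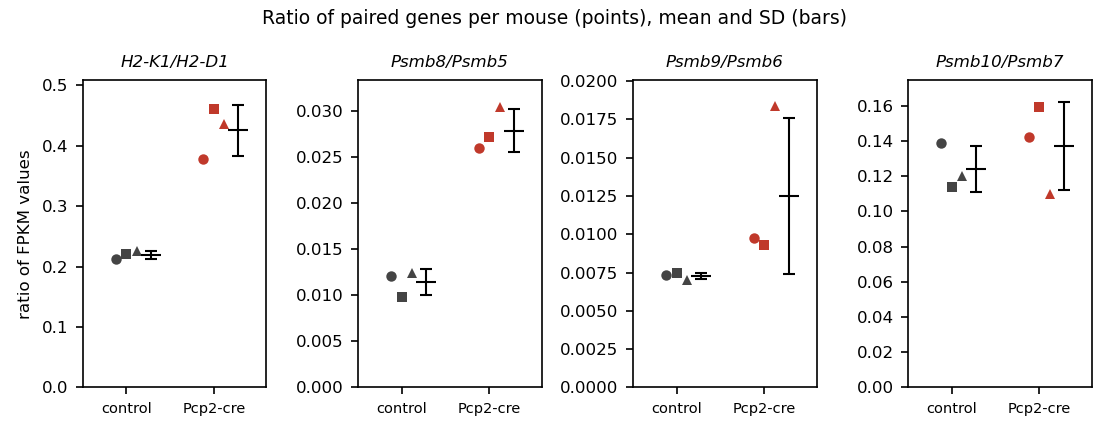
Ratio of FPKM values in each of 3 control (grey) and 3 Pcp2-cre mice (red), on linear axes from zero with the mean and SD beside the points, for H2-K1 over H2-D1 and for each immune proteasome subunit over its constitutive partner. The first 3 ratios separate the genotypes, the Psmb9 ratio of Pcp2-cre mouse 3 stands far above the others, and the Psmb10 ratio overlaps.

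Of the costimulatory ligands, *Cd86*, which binds CD28 and CTLA4 on T cells, had 3, 1 and 3 counts in controls and 7, 24 and 24 in Pcp2-cre mice. All 3 controls lay at or under the limit of 3 counts, and each Pcp2-cre mouse exceeded it. Pooled over the mice, 7 counts stood against 55, a ratio of 8.64 scaled to library size with a 95% exact counting interval of 3.92 to 22.5, which covers counting error only. *Cd86* did not pass the filter on low counts. Where no filter was applied its log2 fold change was 3.01 ± 0.446 (SE, edgeR adjusted p = 1.28e-09). In that fit the edgeR adjusted p of *B2m* was 7.14e-28, against 2.01e-07 with the filter, at nearly the same fold change. The size of the *Cd86* p value there is therefore to be read with caution. DESeq2 gave 3.1 ± 0.769 (SE) with an adjusted p of 0.0023. The adjusted p from limma was 0.0553 on log2(FPKM + 1) and 0.0316 on log2(FPKM + 0.1). *Cd80*, the other ligand of the same receptors, had 2.99, 2.09 and 2.48 CPM in controls and 2.37, 2.31 and 2.52 CPM in Pcp2-cre mice (log2 fold change -0.08, standard error 0.25). *Cd40*, the receptor by which T cells license presenting cells, had 6, 5 and 9 counts in controls and 4, 5 and 3 in Pcp2-cre mice. In CPM it was lower without overlap, at 0.7445 to 0.892 in controls and 0.444 to 0.577 in Pcp2-cre mice, while its FPKM groups overlapped. Its pooled ratio was 0.66 with a counting interval of 0.294 to 1.42.

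The other genes of the pathway were counted from a list of 61, of which 49 were tested. Of these, 2 were called higher, both endolysosomal proteases: *Ctss*, which cuts the invariant chain, rose by 1.84 ± 0.0959 (SE) on the log2 scale and *Ctsd* by 1.04 ± 0.0586 (SE). None was called lower by edgeR, where all tested genes gave 1.37% called higher and 1.79% called lower. The unadjusted edgeR p was under 0.05 for 9 of 49, close to the 18% of all tested genes. *Ctss* had 17.6, 17.7 and 14.4 CPM in controls and 55.8, 54.3 and 66.3 CPM in Pcp2-cre mice. At any fold, 7 of the 49 passed as higher and 0 as lower, against 2.99% and 4.75% of all tested genes. They were 5 of the 7 endolysosomal processing genes, *Rfx5* of the class II regulators and *Cd83* of the other costimulatory genes. *Rfx5* rose by 0.23 (edgeR adjusted p = 0.0423) and *Cd83* by 0.34 (edgeR adjusted p = 0.0378) on the log2 scale, both under the fold threshold. The constitutive proteasome gave 0 of 17 past the test (median log2 fold change 0.06), and other folding enzymes of the endoplasmic reticulum 0 of 7 (median -0.07).

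Markers of several cell types differed between the genotypes beside these genes. In a list of 12 microglial genes 9 were called higher, and the summed level was 115.5 to 120.5 CPM in controls and 271.1 to 289.7 CPM in Pcp2-cre mice, while *P2ry12*, *Tmem119* and *Siglech* did not pass. In a list of 10 genes of activated microglia 9 were called higher, at 64.2 to 68.6 and 175.6 to 206.8 CPM. Border macrophage genes gave 1 of 6 tested, *Stab1*, with summed levels of 27.8 to 31.2 and 34.5 to 43.5 CPM. Astrocyte genes gave 2 of 6 called higher, *Gfap* with a log2 fold change of 1.94 and *Aqp4* with 0.51, while *Gja1* rose and *Slc1a3* fell under the fold threshold. The summed astrocyte level was 2535 to 2596 CPM in controls and 2932 to 3026 CPM in Pcp2-cre mice. The part of these markers in the values of *B2m*, *H2-K1*, *Psmb8* and *Cd86* was not tested.

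Markers of lymphocytes were at or near zero in both genotypes. The 8 T and NK cell genes summed to 1 to 9 counts in controls and 4 to 7 in Pcp2-cre mice, with *Cd3g*, *Nkg7* and *Gzmb* at 0 in all 6 mice. The 5 B cell genes summed to 3 to 11 and 6 to 9 counts. Of the genes listed for dendritic cells, *Xcr1* was at 0 in every mouse and *Clec9a*, *Cd209a* and *Ccr7* had at most 3 counts in any mouse. *Flt3* was called lower (log2 fold change -0.70), *Zbtb46* fell under the fold threshold (-0.39) and *Bst2* was called higher (0.78). *Flt3* and *Zbtb46* were far more abundant, at 48.55 to 56.89 and 88.15 to 96.31 CPM in controls. Which cells these transcripts came from was not tested, so they are not read as dendritic cells. Monocyte and neutrophil genes summed to 6 to 23 counts in controls and 9 to 37 in Pcp2-cre mice, with *Ly6g* at 0 in all 6. Endothelial genes gave 0 of 6 past the test, beside 2.99% higher and 4.75% lower of all tested genes. Their summed level was 229.4 to 235.8 CPM in controls and 245 to 251.6 CPM in Pcp2-cre mice.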

How the data were processed

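RNA was measured in whole cerebellum of 6 mice, 3 per genotype, and groups, sex and replicate number were taken from the labels. As the methods and labels state, trimmed read pairs were placed on GRCm39 by STAR, and gene values were made on Gencode with featureCounts and StringTie. Tool versions, the Gencode release, strand use and the handling of multi-mapping reads are not given in the sources used here. A table of raw counts (53746 genes) and one of FPKM (55005 genes) were deposited, per mouse. The chi-square per gene between replicate libraries was above 1 in each pair, so none was counted as a duplicate.

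The counts entered edgeR 4.0.16 under R 4.3.3 (TMM after filterByExpr, quasi-likelihood test of genotype) over all genes, with Benjamini-Hochberg adjustment. Standard errors came from the fold change and its F statistic. Each library is 1 mouse. DESeq2 1.42.0, limma 3.58.1 on log2(FPKM + 1) and log2(FPKM + 0.1), and the other alternatives are in the closing section. Ratios were compared by two-sided exact permutation tests. The scripts were tested on simulated counts. Positions and overlapping exons were read from the Gencode M39 annotation of GRCm39, promoter windows from RefSeq on GRCm38.p6.

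The members and lists were chosen with earlier results of these data known. Every member is accounted for. Values per mouse are given for members called and for the defining genes of each role, and the others by range, with values where the groups do not overlap. Other genes of the pathway are named where called, with *Psmb5*, *Psmb6*, *Psmb7*, *Rfx5* and *Cd83*.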

Additional observations from a re-analysis of the deposited data

How the results depend on the processing

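At the thresholds of the report *B2m* and *Psmb8* were called in every setting that tested them, and *H2-D1* passed the adjusted p in all 17. The number of genes called higher was 2 to 4 with each mouse left out in turn and 3 without control mice 1 and 2 together, a setting chosen after seeing the data in which the lone control is assumed to vary like the other group. There the log2 fold change of *H2-K1* was 0.41, under the threshold, and that of *Cd86*, which entered the test in that setting, was 2.945. Without control mouse 1, *H2-K1* was not called and *Cd86* was, and without Pcp2-cre mouse 3 only *B2m* and *Psmb8* were called. These changes are separate: 30 genes of the list were tested in the main fit and 31 without control mouse 1, where *Cd86* passed the filter on low counts. With 3, 1 and 3 counts in controls, *Cd86* passed that filter through the Pcp2-cre mice alone. The genes called higher numbered 3 with the replicate block and 2 with the choroid plexus score, where *H2-K1* fell under the fold threshold, or where at least 10 counts were asked of every mouse, where *Psmb8* was not tested. Requiring a log2 fold change of at least 1 left 1, *Psmb8*, and dropping the fold threshold gave 1 gene lower, *H2-D1*. The median log2 fold change was 0.26 with limma on log2(FPKM + 0.1) and 0.17 with the replicate block. The cause was not tested. Same-numbered mice correlated at 0.041, 0.056 and 0.166 in their deviations from the group means, so the numbers were not taken to pair them, and control mouse 1 correlated best with Pcp2-cre mouse 2 (0.073). The log2 fold changes of 8 genes that were never called, among them *Tap1* and *Psmb10*, changed sign in 28 gene and setting pairs. Depth limits the genes of few counts: 3 counts came to 0.297 to 0.447 CPM.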
